A study of Mus musculus with 5 samples.

Results

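The Slc22 genes encode transporters that carry organic anions, organic cations, carnitine and urate across the membranes of the proximal tubule. Of the 35478 genes in the count tables, 9 were described here, chosen by their gene names: Slc22a6, Slc22a7 and Slc22a8 (organic anions), Slc22a12 and Slc22a13 (urate and nicotinate), Slc22a2 (organic cations), Slc22a5 and Slc22a4 (carnitine and ergothioneine) and Slc22a18 (an imprinted orphan transporter). RNA was measured in the kidneys of male mice. Their strain is C57BL/6J in the sample labels and C57BL/6J;129 in the study's methods. The methods give an age of 7 to 8 weeks for the mice used for surgery. All 5 mice underwent unilateral ischemia-reperfusion injury (UIRI): the left renal pedicle was clamped for 35 minutes while the animal lay at 38.5 °C. The right kidney was taken out on day 10 and the animals were killed on day 11, so no group without injury was compared here. The control group was 2 Prdm16fl/fl mice (mice 1 and 3), which carry loxP sites around exon 9 of Prdm16 and no Cre. The knockout group was 3 Ksp-Cre/Prdm16fl/fl mice (mice 1, 2 and 3), which carry the same floxed alleles and a Cre driven by the promoter of kidney-specific cadherin, a gene of tubular epithelial cells. Each library came from 1 mouse and held the RNA of all cell types. The tissue was the renal cortex according to the study's methods. In such bulk samples, fewer cells of a type and less RNA per cell cannot be told apart. In how many proximal tubule cells Cre acted was not measured here.

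Secretion of drugs and metabolites by the proximal tubule takes place in steps. Transporters of the basolateral membrane, Slc22a6 and Slc22a8 for anions and Slc22a2 for cations, bring substrates from blood into the cell, the anions in exchange for dicarboxylates that the sodium gradient keeps high inside. Carriers of the brush border then release them into the lumen. Members at the brush border work mainly in the other direction, with Slc22a12 taking up urate in exchange for anions and Slc22a5 taking up carnitine together with sodium, so that both are kept from being lost in urine. Expression of several of these genes in the kidney is known to depend on the hepatocyte nuclear factor HNF4.

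Total counts lay between 14939040 and 16425161 per library. Members took 0.267% and 0.289% of them in the control mice and 0.106%, 0.143% and 0.125% in knockout mice 1, 2 and 3. Prdm16 itself, the targeted gene, was counted over its whole length and does not show the loss of 1 exon. Its level was 25.3 and 20.02 TMM-normalized counts per 1000000 (CPM) in the controls and 17.1, 17.0 and 18.0 CPM in the knockouts (log2 fold change -0.38, adjusted p = 0.259 by edgeR's quasi-likelihood test). Counts of 4 Y-linked genes were between 417 and 2324 and those of Xist between 5 and 11 in every library, as in male tissue. Knockout mouse 3 stood apart: the correlation of log2 CPM across genes was 0.957 and 0.960 to the other knockouts, beside 0.991 between knockout mice 1 and 2 and 0.989 between the controls. Calls of members and medians of lists are therefore also given without it.

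Upstream sequences are shown for 3 members. The first 2, Slc22a5 and Slc22a4, lie on chromosome 11 and were the members with the smallest differences between the groups, and the third, Slc22a8, was the anion transporter with the smallest adjusted p. Sequences are those of RefSeq on GRCm38.p6, from 250 bases before to 30 bases after the annotated start, 5′ to 3′ on the strand of the gene, and 8 of the 9 members were matched (all but Slc22a7). Positions of these windows differ from the gene positions in the files, whose mouse build is not given, and cannot be combined with them. Capitals mark the GC box (CCGCCC, or GGGCGG where it lies on the other strand). It was searched on both strands, and the last 2 GC boxes of Slc22a5 share a base.
Slc22a5 promoter, chr11:53891674-53891953, minus strand: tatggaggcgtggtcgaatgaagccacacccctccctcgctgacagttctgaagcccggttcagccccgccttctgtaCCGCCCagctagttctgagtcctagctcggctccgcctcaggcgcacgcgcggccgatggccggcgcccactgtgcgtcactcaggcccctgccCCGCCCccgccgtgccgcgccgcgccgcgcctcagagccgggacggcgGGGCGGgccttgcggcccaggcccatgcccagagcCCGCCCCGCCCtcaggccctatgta
Slc22a4 promoter, chr11:54028075-54028354, minus strand: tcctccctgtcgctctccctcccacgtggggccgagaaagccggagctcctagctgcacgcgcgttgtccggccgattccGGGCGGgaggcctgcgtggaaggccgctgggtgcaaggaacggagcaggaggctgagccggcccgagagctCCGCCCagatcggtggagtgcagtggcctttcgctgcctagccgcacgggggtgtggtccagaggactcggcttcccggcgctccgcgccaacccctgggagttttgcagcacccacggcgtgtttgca
Slc22a8 promoter, chr19:8592932-8593211, plus strand: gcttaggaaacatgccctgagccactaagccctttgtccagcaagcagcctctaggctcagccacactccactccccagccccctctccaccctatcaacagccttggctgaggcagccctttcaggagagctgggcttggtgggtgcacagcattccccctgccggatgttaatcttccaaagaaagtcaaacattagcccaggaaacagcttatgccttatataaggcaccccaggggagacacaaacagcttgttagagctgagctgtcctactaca
The GC box occurred 5 times in Slc22a5, 2 times in Slc22a4 and 1 time in Slc22a12, was in none of the other 5 windows, and is held by 34.7% of 32851 promoter windows of the same length. CpG dinucleotides numbered 32 in Slc22a5 and 28 in Slc22a4, between 0 and 8 in the other 6 members, and 6 at the median of all windows. Bases G and C made up 73.2% of the Slc22a5 window and 69.6% of that of Slc22a4, 54.3% of that of Slc22a8 and 52.5% at the median of all. The exact letters of a core of the HNF4 site (CAAAGTCCA) were in none of the 8 windows and in 0.457% of all. With so rare a match, its absence from 8 windows cannot show that HNF4 sites are missing. The exact letters TATAAA of a TATA box were in Slc22a13 alone, at its start and on the other strand, and in 13.1% of all. Variants of the HNF4 site and of the TATA box were not searched, and the Slc22a8 window holds the letters tatataag. These are matches of letters and no measurement of binding.

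Of the 9 members, 3 were called lower in the Ksp-Cre/Prdm16fl/fl mice after UIRI, Slc22a7, Slc22a8 and Slc22a18, and 0 were called higher. A gene was called if edgeR's quasi-likelihood test gave a Benjamini-Hochberg adjusted p under 0.05, with all 16394 tested genes in the adjustment, and the log2 fold change was 1 or more in either direction. The same call was made for 0.628% of all genes tested in the lower direction and for 0.708% in either, and an adjusted p under 0.05 with a lower value, whatever its size, for 0.872%, by which the same 3 members passed. All 9 members passed the filter on low counts, and the lowest count of any was 10. For 8 of the 9, all 3 knockout mice lay below both controls, as they did for 21.3% of all genes. A log2 fold change of -1 or less was seen for 7 members and for 4.28% of all genes, and an unadjusted p under 0.05 for 7 members and 18.8% of all genes. The median log2 fold change of the members was -1.35, beside 0.038 over all genes tested, and -1.30 without knockout mouse 3. Single mice decided the number of calls. Without knockout mouse 3, 7 members were called lower, all but Slc22a4 and Slc22a5, beside 3.1% of all genes. With knockout mouse 1 or knockout mouse 2 left out, edgeR called 0 members and 0 genes in all. An unadjusted p under 0.05 was then seen for 6 and 8 members, beside 2514 of 16201 and 2298 of 16176 genes tested. Leaving out a control mouse leaves 1 control. The median log2 fold change of the members was then -1.42 without control mouse 1 and -1.11 without control mouse 3. DESeq2 called 6 members lower, Slc22a2, Slc22a6 and Slc22a12 beside the 3, against 2.43% of all genes, and limma on log2(TPM + 1) called Slc22a8 and Slc22a18.

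**Figure D1:**
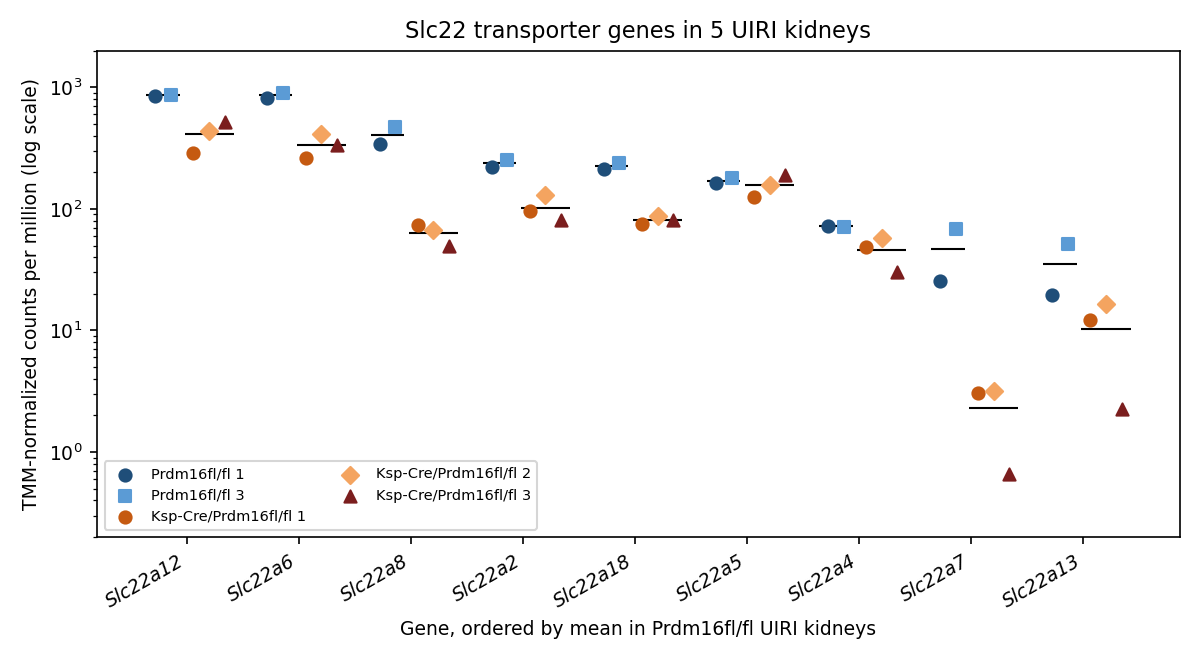
Level of each member in every kidney, in TMM-normalized counts per 1000000 on a log axis, with 1 point per mouse and a black line at each group's mean. The 3 Ksp-Cre/Prdm16fl/fl mice lie below both Prdm16fl/fl mice for 8 genes, and the groups overlap for Slc22a5.

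Values below are TMM-normalized CPM, given for control mice 1 and 3 and then for knockout mice 1, 2 and 3. Slc22a8, known as Oat3, a basolateral exchanger of organic anions such as antibiotics and conjugated steroids, stood at 344 and 471 CPM in the controls and at 73.8, 67.0 and 49.6 CPM in the knockouts. The groups were far apart, and the highest knockout value was below the lower control. It fell 6.42-fold, with group means of 407 ± 89.97 CPM (SD, 2 mice) and 63.5 ± 12.5 CPM (SD, 3 mice), and the log2 fold change was -2.68 (standard error 0.22, edgeR adjusted p = 0.0242). Over the fits that left out 1 mouse the log2 fold change lay between -2.89 and -2.44. In the files its exons overlap those of Gm36394 on the opposite strand over 31.8% of their length. Gm36394 itself had 21 to 38 counts per library against 744 to 6563 of Slc22a8.

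Slc22a6, known as Oat1, the classical basolateral transporter of p-aminohippurate, was the second most abundant member by TPM (transcripts per 1000000, which accounts for gene length). It stood at 822 and 896 CPM in the controls and at 265, 411 and 334 CPM in the knockouts. All knockout values were under the controls, with no overlap. Its log2 fold change of -1.35 (standard error 0.21, 95% interval -1.85 to -0.85) had an adjusted p = 0.0505 by edgeR and missed the call. DESeq2 gave an adjusted p = 6.0e-07, and edgeR without knockout mouse 3 gave 0.0027, within a range of 6.0e-07 to 0.521 over all alternatives. Slc22a6 and Slc22a8 are listed on the plus strand of chromosome 19, at 8595360 to 8605663 and 8568545 to 8589199 in the files' coordinates, 6161 bp apart. Their TPM ratio, Slc22a6 over Slc22a8, was 2.40 and 1.91 in the controls and 3.60, 6.15 and 6.75 in the knockouts. Every knockout mouse had a higher ratio than both controls, and the log2 ratio of their CPM differed by 1.31 (exact two-sided permutation test, p = 0.2; the smallest p that 10 splits of the mice allow is 0.1).

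Slc22a7, known as Oat2, carries organic anions and purine metabolites. In the files it occupies positions 46743111 to 46749403 of chromosome 17 on the minus strand. Its raw counts were 380 and 944 in the controls and 54, 54 and 10 in the knockouts, which is 25.6 and 67.7 CPM against 3.07, 3.19 and 0.666 CPM. The groups did not overlap, but the mice differed within each group, 2.64-fold between the controls, and knockout mouse 3 stood at 0.213 of the mean of the other knockouts. The log2 fold change was -4.31 (standard error 0.64, 95% interval -5.88 to -2.75, edgeR adjusted p = 0.0498). The call was lost in 10 of 14 alternatives, over which the adjusted p ranged from 1.3e-04 to 0.521 and the log2 fold change from -4.86 to -3.46. Without knockout mouse 3 it was -3.89 (adjusted p = 0.0013). Gm36541 on the opposite strand overlaps 7.77% of its exon bases and had 0 to 2 counts.

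The urate and nicotinate exchangers of the brush border differed from each other. Slc22a12, known as Urat1, which reabsorbs urate, was the most abundant member by TPM in both groups. It stood at 856 and 869 CPM in the controls and at 291, 437 and 522 CPM in the knockouts, a log2 fold change of -1.05 (standard error 0.25, edgeR adjusted p = 0.107). The knockouts were below both controls, and knockout mouse 3 was the highest of them. Without that mouse the log2 fold change was -1.24 with an adjusted p = 0.0029, and the range over all alternatives was 0.0029 to 0.573. In the GENCODE M21 transcripts, 27.4% of the 50-base windows of Slc22a12 also occur in transcripts of Nrxn2. Nrxn2 stood at 33.4 and 40.6 CPM in the controls and at 42.3, 43.9 and 180 CPM in the knockouts, highest in the same mouse 3. Its part in the Slc22a12 values was not tested.

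Slc22a13, known as Oat10, which exchanges nicotinate and urate, was among the least abundant members. It stood at 19.7 and 51.2 CPM in the controls and at 12.1, 16.4 and 2.27 CPM in the knockouts. Knockout mouse 2 was close to control mouse 1, and knockout mouse 3 stood at 0.159 of the mean of the other knockouts. The log2 fold change was -1.78 (standard error 0.75, 95% interval -3.59 to 0.039, edgeR adjusted p = 0.275). It was -0.93 without control mouse 3, -2.31 without control mouse 1 and -1.30 without knockout mouse 3. The last of these fits gave an adjusted p = 0.0437, the lowest over all alternatives, which reached 0.873. Of its 50-base windows, 36.01% also occur in the pseudogene Slc22a13b-ps, so the count is uncertain.

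The organic cation transporter Slc22a2, known as Oct2, takes up creatinine and metformin at the basolateral membrane. It stood at 221 and 255 CPM in the controls and at 96.3, 129 and 81.6 CPM in the knockouts. The groups did not overlap, and the highest knockout was well below the lower control. The log2 fold change was -1.22 (standard error 0.21, 95% interval -1.73 to -0.71) with an adjusted p = 0.0564 by edgeR, just above the threshold. DESeq2 gave 4.5e-05 and the fit without knockout mouse 3 gave 0.0024, within a range of 4.5e-05 to 0.525.

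Slc22a5, known as Octn2, takes up carnitine and was the exception among the members. It stood at 162 and 180 CPM in the controls and at 125, 156 and 190 CPM in the knockouts, and the groups overlapped. Knockout mouse 3 had the highest value of all 5 mice. The log2 fold change was -0.12 (standard error 0.19, edgeR adjusted p = 0.767), and its 95% interval ran from -0.59 to 0.34. The sign depended on the setting: it was 0.096 by limma on log2(TPM + 1), where the median of all genes was 0.23, and 0.016 without knockout mouse 1, and it was -0.28 without knockout mouse 3. Its windows of 50 bases were shared to 26.3% with other genes, Slc22a21 and Slc22a4 among them. Slc22a21 stood at 12.7 and 12.1 CPM in the controls and at 8.57, 11.8 and 27.1 CPM in the knockouts, so it too was highest in knockout mouse 3.

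Slc22a4, known as Octn1, carries ergothioneine and lies 91332 bp from Slc22a5 on the minus strand of chromosome 11. It stood at 73.0 and 71.3 CPM in the controls and at 48.4, 57.8 and 30.4 CPM in the knockouts. The knockouts lay below both controls, and mouse 3 was the lowest, unlike for its neighbour. The log2 fold change was -0.66 (standard error 0.26, 95% interval -1.29 to -0.037, edgeR adjusted p = 0.245). Without knockout mouse 3 it was -0.44 with an adjusted p = 0.0265, under the size needed for a call, within a range of 0.0265 to 0.752 over all alternatives.

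Slc22a18 encodes a transporter whose substrates are not settled and lies in an imprinted region of chromosome 7, where the maternal copy is the active one. It stood at 211 and 237 CPM in the controls and at 74.7, 87.7 and 80.6 CPM in the knockouts. The groups did not overlap, and the 3 knockouts lay close together, knockout mouse 3 included, at 0.993 of the mean of the others. It fell 2.77-fold, with group means of 224 ± 18.1 CPM (SD, 2 mice) and 81.0 ± 6.52 CPM (SD, 3 mice), and the log2 fold change was -1.47 with the smallest standard error of the members, 0.13 (edgeR adjusted p = 0.0242). It shares no window of 50 bases with another gene. Its imprinted neighbours Cdkn1c, Kcnq1, Phlda2 and Kcnq1ot1 had a median log2 fold change of -0.56 (-0.59 without knockout mouse 3), from -0.99 for Cdkn1c, a cell cycle inhibitor, to -0.32 for Kcnq1ot1, the noncoding RNA of the region. By edgeR and by DESeq2 0 of these 4 were called, and 1 had an unadjusted p under 0.05. The counts do not separate the parental alleles.

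**Figure D2:**
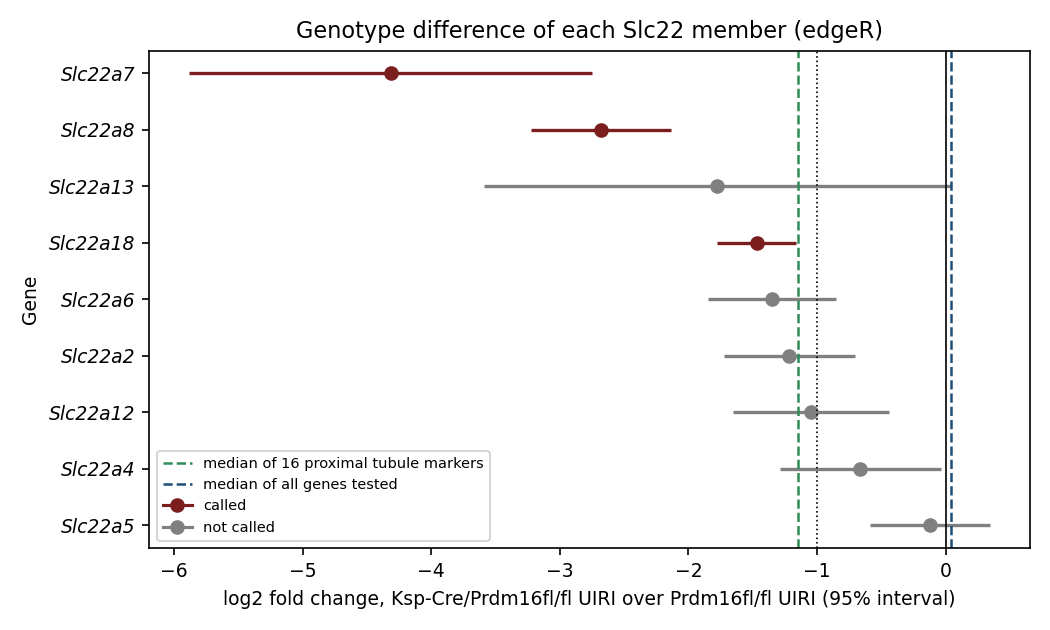
Log2 fold change of each member, Ksp-Cre/Prdm16fl/fl over Prdm16fl/fl UIRI mice, with its 95% interval from edgeR; dark red marks the 3 called members and the dotted line a log2 fold change of -1. The dashed lines mark the median of the 16 proximal tubule markers, -1.14, and of all genes tested, 0.038, and the intervals of Slc22a5 and Slc22a13 include 0.

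Levels of different genes were compared in TPM. In the controls, Slc22a12 led with 837 ± 48.4 TPM (SD, n = 2), followed by Slc22a6 with 466 ± 3.75 TPM, Slc22a18 with 273 ± 3.28 TPM, Slc22a8 with 219 ± 33.6 TPM, Slc22a2 with 214 ± 7.01 TPM and Slc22a5 with 117 ± 0.585 TPM. Slc22a7 (49.8 ± 29.0 TPM), Slc22a4 (23.6 ± 2.01 TPM) and Slc22a13 (22.0 ± 12.6 TPM) were low. The ranges of Slc22a8 and Slc22a2 overlapped, as did those of Slc22a4 and Slc22a13, and other neighbours in the order were apart. In the knockouts Slc22a12 led with 473 ± 111 TPM (SD, n = 3) and Slc22a6 followed with 216 ± 50.9 TPM, again with ranges apart. Slc22a5 came next, with 126 ± 18.8 TPM, but its range overlapped that of Slc22a18 (117 ± 12.6 TPM), which overlapped that of Slc22a2 (110 ± 31.3 TPM). Slc22a8 stood at 41.0 ± 10.3 TPM, below these, and Slc22a4 (17.8 ± 6.28 TPM), Slc22a13 (7.93 ± 5.75 TPM) and Slc22a7 (3.05 ± 1.96 TPM) came last, each overlapping the next.

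Summed over the 9 members, the level was 2199 and 2244 TPM in the controls and 928, 1282 and 1124 TPM in the knockouts. The knockouts were all below the controls (2221 ± 31.8 TPM, n = 2, against 1111 ± 177 TPM, n = 3; exact two-sided permutation test, p = 0.1, the smallest possible). Within that sum, the share of Slc22a8 was 8.89% and 10.8% in the controls and 5.28%, 3.47% and 2.61% in the knockouts, whereas that of Slc22a5 was 5.28% and 5.22% against 11.3%, 10.2% and 12.6%. Both shares separated the groups (exact permutation test, p = 0.1 each). The share of Slc22a6 was between 17.7% and 21.3% in all 5 mice, and the groups overlapped.

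The members were next set against 16 markers of the proximal tubule, the segment in which they act. These markers, among them the endocytic receptor Lrp2 and the phosphate transporter Slc34a1, were abundant in every library, with summed levels between 12760 and 12984 CPM in the controls and between 5698 and 6462 CPM in the knockouts. All 16 had a negative log2 fold change, with a median of -1.14 (-1.08 without knockout mouse 3), and in 12 the knockouts lay below both controls. Of these, 4 were called lower: Miox (-2.23), which breaks down inositol, the brush border enzymes Dpep1 (-1.43) and Ggt1 (-1.35), and Fbp1 (-1.01), of gluconeogenesis. The highest value was -0.08, of the bicarbonate transporter Slc4a4. Each member's log2 CPM was therefore also taken relative to the mean log2 CPM of these markers in the same library.

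On that scale the mean of the 9 members was -1.61 and -1.17 in the controls and -1.93, -1.70 and -2.05 in the knockouts, a difference of -0.50. The knockouts were below both controls (exact two-sided permutation test, p = 0.1, the smallest possible, which cannot pass 0.05). The difference was -0.42 without knockout mouse 3, -0.28 without control mouse 3 and -0.72 without control mouse 1. Relative to 5 markers of the S1 segment, the first part of the proximal tubule, it was -0.46 (exact permutation test, p = 0.3), and relative to 6 markers of S3, its last part, it was 0.058 (exact permutation test, p = 0.9).

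Single members divided into 3 patterns relative to the 16 markers. The share of all genes tested that show each pattern on this scale was not computed. Slc22a7 and Slc22a8 were lower in each knockout than in both controls, by differences of -3.18 and -1.503. Slc22a5 was higher in each knockout, by 1.04, and Slc22a4 likewise by 0.47. Slc22a5 went from -1.59 and -1.43 in the controls to -0.86, -0.62 and 0.061 in the knockouts. The markers themselves were lower in the knockouts (median -1.14), so a gene without a difference in CPM lies higher on this scale. In plain CPM the log2 fold changes of Slc22a5 and Slc22a4 were -0.12 and -0.66. The groups overlapped for the other 5, with differences of -0.84 for Slc22a13, -0.29 for Slc22a18, -0.19 for Slc22a6, -0.06 for Slc22a2 and 0.087 for Slc22a12. Exact two-sided permutation tests gave p = 0.1 for Slc22a7, Slc22a8 and Slc22a5, p = 0.2 for Slc22a4 and between 0.3 and 0.8 for the rest, before any adjustment for the 9 genes, and with 2 and 3 mice no p under 0.1 can be reached. Whether cell loss or lower expression per cell underlies the marker levels cannot be told apart.

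**Figure D3:**
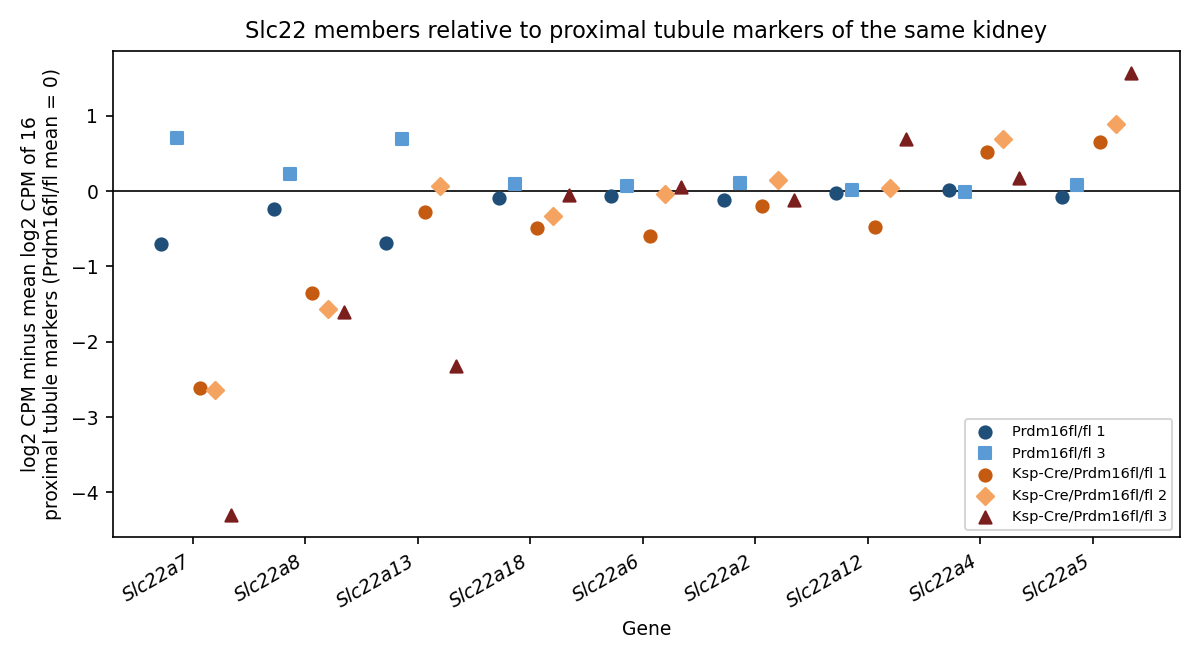
Log2 CPM of each member minus the mean log2 CPM of 16 proximal tubule markers in the same kidney, with the mean of the Prdm16fl/fl mice set to 0 for each gene and 1 point per mouse. Slc22a7 and Slc22a8 lie below both Prdm16fl/fl mice in every Ksp-Cre/Prdm16fl/fl mouse, Slc22a4 and Slc22a5 lie above, and the groups overlap for the other 5. The markers themselves had a median log2 fold change of -1.14, so a gene without a difference in CPM lies above 0 in the knockouts.

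The files list 16 further Slc22 genes, of which 11 passed the filter. Their median log2 fold change was -1.62 (-1.17 without knockout mouse 3), and in 8 the knockouts lay below both controls. By edgeR 0 of them were called, with 6 at an unadjusted p under 0.05, and DESeq2 called 5 lower: Slc22a19, Slc22a22, Slc22a28, Slc22a29 and Slc22a30. The lowest was Slc22a22, a prostaglandin transporter, at 57.9 and 74.0 CPM in the controls and at 9.99, 11.1 and 1.199 CPM in the knockouts (log2 fold change -3.14, edgeR adjusted p = 0.0951). The highest was Slc22a15, with 0.49. Genes of this family that lie close together in the genome are similar in sequence, so reads could have been split between them.

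Knockout mouse 3 was lowest in a recurring set of these genes. Its CPM, as a ratio to the mean of knockout mice 1 and 2, was 0.114 for Slc22a22, 0.174 for Slc22a28, 0.186 for Slc22a26, 0.271 for Slc22a19 and 0.30 for Slc22a30, similar to the 0.159 of Slc22a13 and the 0.213 of Slc22a7. Among the S3 markers, the ratio was 0.0687 for Slc7a13, a cystine transporter subunit, and 0.268 for Cyp7b1, a sterol hydroxylase, but 1.08 for Acy3 and 1.26 for Atp11a. The same mouse was above the other knockouts for Slc22a5 (1.35) and Slc22a12 (1.43). The 2 controls differed for some of the same genes but not for all. Control mouse 3 over control mouse 1 gave 2.64 for Slc22a7, 2.60 for Slc22a13, 2.47 for Slc22a19, 2.43 for Slc22a26 and 3.04 for Cyp7b1. That ratio was only 1.28 for Slc22a22, 1.24 for Slc22a30 and 1.09 for Slc22a28, which were also low in knockout mouse 3. For Slc22a12 and Slc22a6 it was 1.02 and 1.09. What sets these mice apart was not tested.

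**Figure D4:**
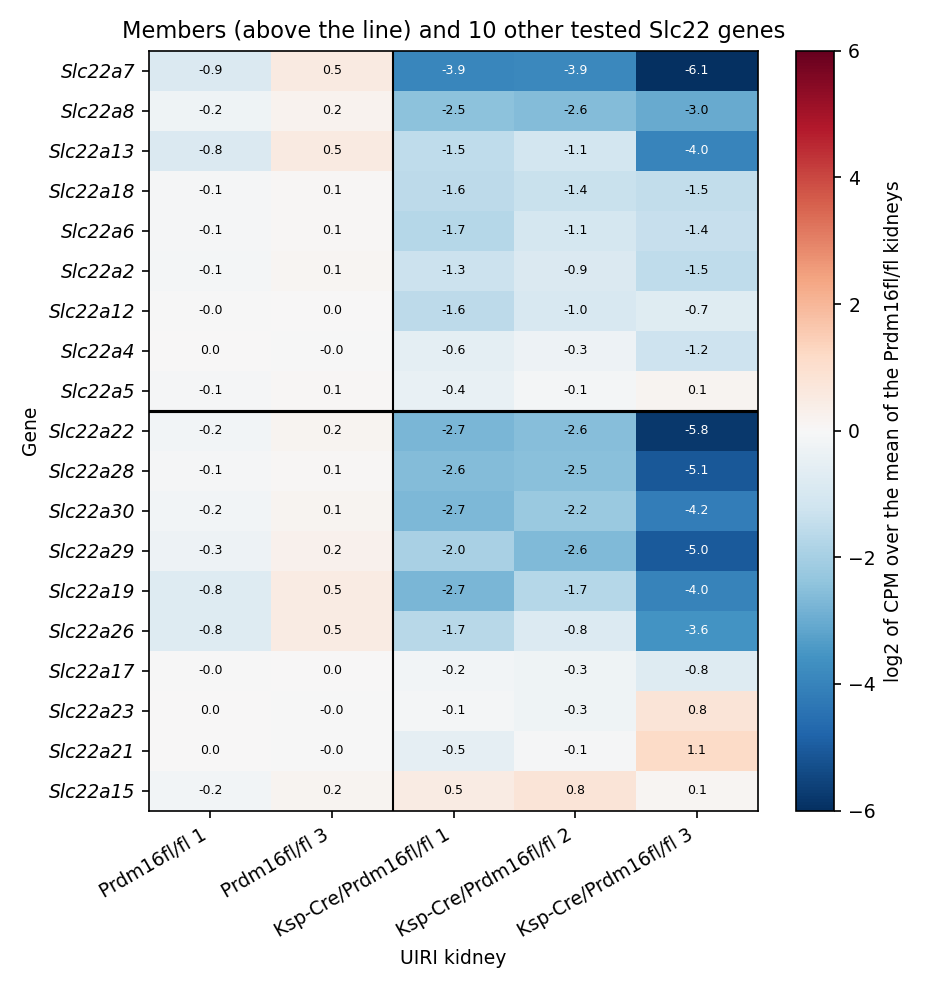
Log2 of the CPM in each kidney over the mean of the Prdm16fl/fl kidneys, for the 9 members above the line and 10 of the 11 other tested Slc22 genes below it, blue for lower and red for higher. Ksp-Cre/Prdm16fl/fl mouse 3 has the deepest values for Slc22a7, Slc22a13, Slc22a22 and Slc22a28. Its values lie above the Prdm16fl/fl mean for Slc22a5, Slc22a15, Slc22a21 and Slc22a23.

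Genes that work with the members were examined from lists. For the gradient that drives anion uptake, 7 genes of sodium, dicarboxylate and sulfate transport were tested. All had negative log2 fold changes, with a median of -0.77 (-0.47 without knockout mouse 3), and the lowest was Slc26a1, a basolateral sulfate exchanger, at -1.39. Slc13a3, which brings the exchange partner of Slc22a6 and Slc22a8 into the cell, stood at 630 and 656 CPM in the controls and at 301, 395 and 258 CPM in the knockouts. By edgeR 0 of the 7 were called, with 4 at an unadjusted p under 0.05, and DESeq2 called Slc13a3 and Slc26a1 lower.

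Genes for exit at the brush border and for urate transport differed less evenly. The median log2 fold change of 10 genes was 0.10 (-0.23 without knockout mouse 3), with 4 negative and 6 positive. The lowest was Slc17a3, a urate and anion transporter, at -1.34, and the highest Abcb1b, a multidrug efflux pump, at 0.68. Abcc4, an efflux pump for organic anions and cyclic nucleotides, was at 64.6 and 64.5 CPM in the controls and at 89.2, 99.4 and 96.2 CPM in the knockouts, the only gene of the 10 for which all knockouts lay above both controls, as they did for 20.3% of all genes. By edgeR 0 of the 10 were called, with 3 at an unadjusted p under 0.05, and DESeq2 called Slc17a3 lower.

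Scaffold proteins with PDZ domains hold several of these transporters at the membrane. The 4 genes tested, for such scaffolds and a binding partner, had a median of -0.67 (-0.49 without knockout mouse 3), from -0.90 for Pdzk1ip1 to -0.26 for Slc9a3r2, and 0 were called by edgeR or DESeq2, with 3 at an unadjusted p under 0.05. Among 9 genes for making and using carnitine, the substrate of Slc22a5, the median was -0.34 (-0.57 without knockout mouse 3), from -1.08 for Slc16a9, a carnitine exporter, to 0.54 for Cpt1a, which starts the mitochondrial import of fatty acids. Cpt1a stood at 375 and 343 CPM in the controls and at 305, 337 and 923 CPM in the knockouts, so that knockout mouse 3 alone was higher, as it was for Slc22a5 by a smaller margin. By edgeR 0 of these 9 were called, with 2 at an unadjusted p under 0.05, and DESeq2 called Slc16a9 lower.

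Transcription factors and coactivators of proximal tubule genes differed less than the members. The 9 tested had a median log2 fold change of -0.37, with and without knockout mouse 3, from -0.58 for Esrra, a nuclear receptor of mitochondrial genes, to 0.23 for Nr3c1, the glucocorticoid receptor. Hnf4a stood at 654 and 664 CPM in the controls and at 401, 580 and 550 CPM in the knockouts, below both controls in each knockout. By edgeR and DESeq2 0 of the 9 were called, with 2 at an unadjusted p under 0.05.

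Markers of nephron segments, of injury and of other cells were measured beside these genes. The 5 markers of S1 had a median of -1.28 (-1.14 without knockout mouse 3), from -1.88 for Gatm to -0.23 for Slc6a19, with 0 called by edgeR, 4 at an unadjusted p under 0.05 and 3 called lower by DESeq2. The 6 of S3 had a median of -1.45 (-1.42 without it), from -3.37 for Slc7a13 to -0.10 for Slc5a1, and Acy3, a mercapturate deacylase, was called lower (-1.43, edgeR adjusted p = 0.0467). All 10 tubular injury markers had positive values, with a median of 1.07 (1.05 without it), from 0.35 for Cdh6 to 1.89 for Lcn2, and in 8 the knockouts lay above both controls. By edgeR 0 of the 10 were called, with 8 at an unadjusted p under 0.05, and DESeq2 called 6 higher against 0.771% of all genes. Their summed level was 15288 and 15886 CPM in the controls and 32620, 33147 and 38457 CPM in knockout mice 1, 2 and 3. A single gene made up most of that sum. By the median over the 10 markers, log2 CPM relative to the control mean was 0.975, 0.903 and 0.903 in these knockouts, so mouse 3 was not the highest. The members' summed level went the other way, at 2734 and 3099 CPM in the controls against 989.6, 1365 and 1291 CPM. Medians were negative for the thick ascending limb (-0.66, and -0.35 without knockout mouse 3), distal convoluted tubule (-1.0, and -0.70 without it), principal cells (-0.60 and -0.50), intercalated cells (-0.73 and -0.70), podocytes (-0.64 with and without it) and endothelial cells (-0.13 and -0.089). Nphs1, of the podocyte slit diaphragm, was at -0.85 with an edgeR adjusted p = 0.0412. The leukocyte median was 0.026 with knockout mouse 3 and 0.29 without it. Stromal markers stood at 0.40 and, without that mouse, 0.41, and erythroid genes at 3.93 and 4.32. The erythroid genes had a summed level of 6.67 and 10.8 CPM in the controls and 151, 150 and 40.5 CPM in the knockouts. The part of these cells in the members' values was not tested.

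The profile most like the members was sought across all tested genes, by the root mean square distance between a gene's centred log2 CPM in the 5 libraries and the median of the members. The nearest 5 genes were Gm15217 (0.106), 4931406C07Rik (0.111), Acsm5 (0.118), Cryzl2 (0.118) and Bco2 (0.119), each in log2 units. Acsm5, a medium-chain acyl-CoA synthetase of mitochondria, stood at 67.2 and 72.2 CPM in the controls and at 21.2, 35.3 and 21.6 CPM in the knockouts. Bco2, which cleaves carotenoids, stood at 15.2 and 17.7 CPM against 7.10, 8.33 and 6.26 CPM. Of the members themselves, Slc22a2 was nearest to the median profile (0.0815), followed by Slc22a6 (0.149) and Slc22a18 (0.158), and Slc22a7 (1.65) and Slc22a13 (0.955) were farthest.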

How the data were processed

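Kidney RNA-seq of 2 Prdm16fl/fl and 3 Ksp-Cre/Prdm16fl/fl UIRI mice was grouped by the genotype in the sample labels. The authors deposited raw counts per gene, and beside them TPM (counts divided by gene length and scaled to a fixed sum) and FPKM (counts per kilobase of exon relative to the library's total). Both were recomputed from the deposited counts and differed by rounding only. The submitters' processing notes name CASAVA, featureCounts 2.0.1, DESeq2 1.16.1 and the human build hg38, although the files list mouse genes. The aligner, the mouse build and the strand setting are not given in the sources used here, so overlapping, antisense and near-identical genes are uncertain, and positions of genes are those of the files.

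Records of 5 genes broken in the files were rejoined, and 9845 genes had 0 counts in all libraries. Genes encoded by the mitochondrial chromosome were not analysed here. Counts were filtered with filterByExpr (edgeR 4.0.16, R 4.3.3), scaled by TMM and tested between genotypes without covariates by the quasi-likelihood test, with 16394 genes tested and Benjamini-Hochberg adjustment over all of them. Calls required an adjusted p under 0.05 together with a log2 difference of 1 or more. CPM are per 1000000 TMM-scaled reads. The test was also run on simulated counts with 200 changed genes. Its outcome is not given here, and the simulation held no outlying library such as that of knockout mouse 3. Ratios to marker genes used log2 CPM with a prior count of 2 and an exact two-sided permutation test over mice. Alternatives were DESeq2 1.42.0, other filters and scalings, limma 3.58.1 on log2(TPM + 1) and log2(TPM + 0.1) for genes of at least 1 TPM in 2 libraries, a correction for length and GC content, the mouse number as a block, and leaving out each mouse. Shared windows of 50 bases were counted in GENCODE M21 transcripts, and promoters were taken from RefSeq tables (GRCm38.p6).

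The members, gene lists and tests were chosen with earlier results of these data known. Of the lists, the genes named are those with an adjusted p under 0.05 and those with the largest and smallest log2 fold change. The 9 members, the 5 genes nearest to their median profile, Prdm16 and 5 genes that check sex are named as well. Other genes, such as Slc22a21, Nrxn2, Slc13a3, Abcc4, Hnf4a, Cyp7b1, Atp11a and those called by DESeq2, were named after their values were seen, and a few genes that the lists hold are counted but not reported here by name. With 1 library per mouse, the edgeR p-values set the genotype difference against the spread between mice of a group, estimated with information shared across genes. Permutation p-values rank the observed grouping among the 10 splits of the mice. Python 3.11.15, pandas 2.3.3 and matplotlib 3.10.9 handled tables and figures.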

Additional observations from a re-analysis of the deposited data

How the results depend on the processing

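Counts of calls depended on the processing more than directions did. Of 126 fits of single members under 14 alternatives, 123 kept the direction. The other 3 were of Slc22a5, which turned to 0.096 with limma on log2(TPM + 1), 0.097 with limma on log2(TPM + 0.1) and 0.016 without Ksp-Cre/Prdm16fl/fl mouse 1. The number of members called was 6 with DESeq2, 5 without a filter, 4 with at least 10 counts in every library, and 2 (Slc22a8 and Slc22a18) with scaling by library size or upper quartile, limma or the correction for length and GC content. It lay between 0 and 7 with 1 mouse left out. Of all genes, 116 were called, 502 with DESeq2, 287 without a filter, 137 with at least 10 counts, 90 with upper quartile and 46 with library size scaling, 45 and 43 with limma at the larger and the smaller pseudocount, 40 after the length and GC correction, and between 0 and 733 with 1 mouse left out. With library size scaling the median of all genes moved from 0.038 to 0.15. The share of higher calls among all calls was 13 of 116 with TMM, 12 of 46 with library size scaling and 121 of 502 with DESeq2.

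The median of the members was -1.13 with limma at either pseudocount and lay between -1.52 and -1.11 with 1 mouse left out. Relative to the proximal tubule markers, the mean of the members kept its sign except against S3 markers, where the difference was 0.058. The S1 markers are mostly the same genes as the proximal tubule markers, whereas the S3 markers share none with them. With 1 mouse left out, the difference from the proximal tubule markers lay between -0.72 and -0.28. With the mouse number as a replicate block, 0 members and 0 genes were called, with 8 members and 2061 genes at an unadjusted p under 0.05, and the members' median was -1.53. The groups share only mouse numbers 1 and 3, and the labels do not say that a number marks a shared litter or day. The numbers were therefore not taken as pairs. Deviations from the group means of same-numbered mice had r = 0.001 and -0.022 across genes. With 2 controls, whose deviations mirror each other, these values cannot show that pairing is absent. The cause of these changes was not tested. At depths of 14939040 to 16425161 counts, Slc22a3, Slc22a14, Slc22a16, Slc22a20 and Slc22a27 were too low to test, with 0 to 15 counts per library.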
